A study of Mus musculus with 6 samples.

Results

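The 10 genes described here, Foxi1, Atp6v1b1, Atp6v1g3, Atp6v0d2, Slc4a1, Slc4a9, Slc26a4, Rhcg, Rhbg and Car2, serve acid-base transport in intercalated cells of the kidney. They were taken by symbol, and all 10 were found among the 16095 genes of the deposited table. RNA was sequenced in 6 libraries of sorted mouse kidney epithelial cells, 3 labelled Trf1lox/lox KFP+/t Cre+/t (Terf1_flox below) and 3 labelled Trf1+/+ KFP+/t Cre+/t (control below). Trf1 and Terf1 name the same gene, whose product binds telomere repeats as part of the shelterin complex. The controls also carried the Cre, a CreERT2 driven by Ksp-cadherin (the gene Cdh16), and the fluorescent reporter KFP, and both groups received tamoxifen 3 times a week for 8 weeks from 6 to 8 weeks of age, in males and females. Red cells were lysed, and cells were sorted by an EpCAM antibody and the reporter, so the libraries hold the cells that met this gate. The labels do not say how many mice went into each library, so every n is a number of libraries, and SDs and p-values measure the spread between them, which may be technical.

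Intercalated cells of the collecting duct and connecting tubule set the final acidity of urine. In type A cells a proton pump (the V-ATPase) in the apical membrane secretes acid while SLC4A1 returns bicarbonate to the blood, and in type B cells SLC26A4 (pendrin) secretes bicarbonate. Carbonic anhydrase 2 supplies protons and bicarbonate from carbon dioxide, the Rhesus glycoproteins RHCG and RHBG carry ammonia, and the forkhead factor FOXI1 is required in mice for these cells to form and express their transporters.

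Terf1, the targeted gene, stood at 62.0, 24.6 and 25.3 normalized counts in the Terf1_flox libraries, against 529.6, 486 and 664 in control, with no overlap (log2 fold change −3.99 ± 0.61, limma adjusted p = 0.0814). A normalized count is a read number divided by 1 scaling factor per library, and the libraries held 13870931 to 15375471 reads in Terf1_flox and 13582140 to 17680986 in control. The sort marker Epcam was at 1831, 1434 and 2977 in Terf1_flox, against 4510.2, 5087 and 4416 in control, and Cdh16 at 4247, 4767 and 4063 in Terf1_flox, against 4540.1, 7152 and 5230.5 in control. Mitochondrial genes took 16.2% to 20.6% of reads in Terf1_flox and 10.3% to 13.0% in control. The part of either difference in the results below was not tested. Of 13 intercalated cell markers (the 10 genes without Rhcg, Rhbg and Car2, together with Atp6v0a4, Aqp6, Dmrt2, Kit, Insrr and Hmx2), 13 passed the filter used for testing, a mean of at least 10 normalized counts, and 10 had reads in every library. The 10 genes together took 0.137%, 0.101% and 0.0827% of reads in Terf1_flox and 0.134%, 0.155% and 0.299% in control, each with a Wilson 95% interval of at most 0.00254 percentage points to either side; intervals here cover counting error only. In sorted cells measured in bulk, fewer cells of a type and less RNA per cell cannot be told apart.

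Most of the 10 genes were lower in Terf1_flox, and none passed the limma test over all genes. By limma on log2(normalized count + 1), 9 of 10 log2 fold changes were below 0, against 52.8% of the 14822 genes tested. Of the 10, 6 were below −1, against 22.8%. Their median was −1.10, against −0.08 over all genes tested. The number below 0 was 8 of 10 with equal upper quartiles, where Atp6v1g3 turned to 0.0062. It was also 8 with edgeR and with DESeq2, where Slc4a1 was above 0, and ran from 8 to 10 when single libraries were left out. At a limma adjusted p below 0.05 (Benjamini-Hochberg over all genes), 0 of 10 were called, as were 0.0% of all genes. The targeted gene Terf1 was itself not called (limma adjusted p = 0.0814). At an unadjusted p below 0.05, 4 of 10 were lower (Foxi1, Atp6v1b1, Rhcg and Car2), against 8.43% of all genes lower and 14.1% in either direction. With edgeR on the recovered reads 0 of 10 were called (0.0% of all genes), and 3 were lower at an unadjusted p below 0.05, against 7.33% of all genes lower and 13.4% in either direction. DESeq2 called 2 of the 9 to which it gave an adjusted p, Rhcg and Atp6v1b1, both lower, against 3.34% of all genes lower and 5.81% in either direction. The groups did not overlap for 3 of 10, Rhcg, Atp6v1b1 and Car2, all lower, against 10.8% of all genes lower and 10.3% higher. Without control replicate 3 the same 3 genes did not overlap, against 14.7% of all genes lower and 13.9% higher.

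**Figure D1:**
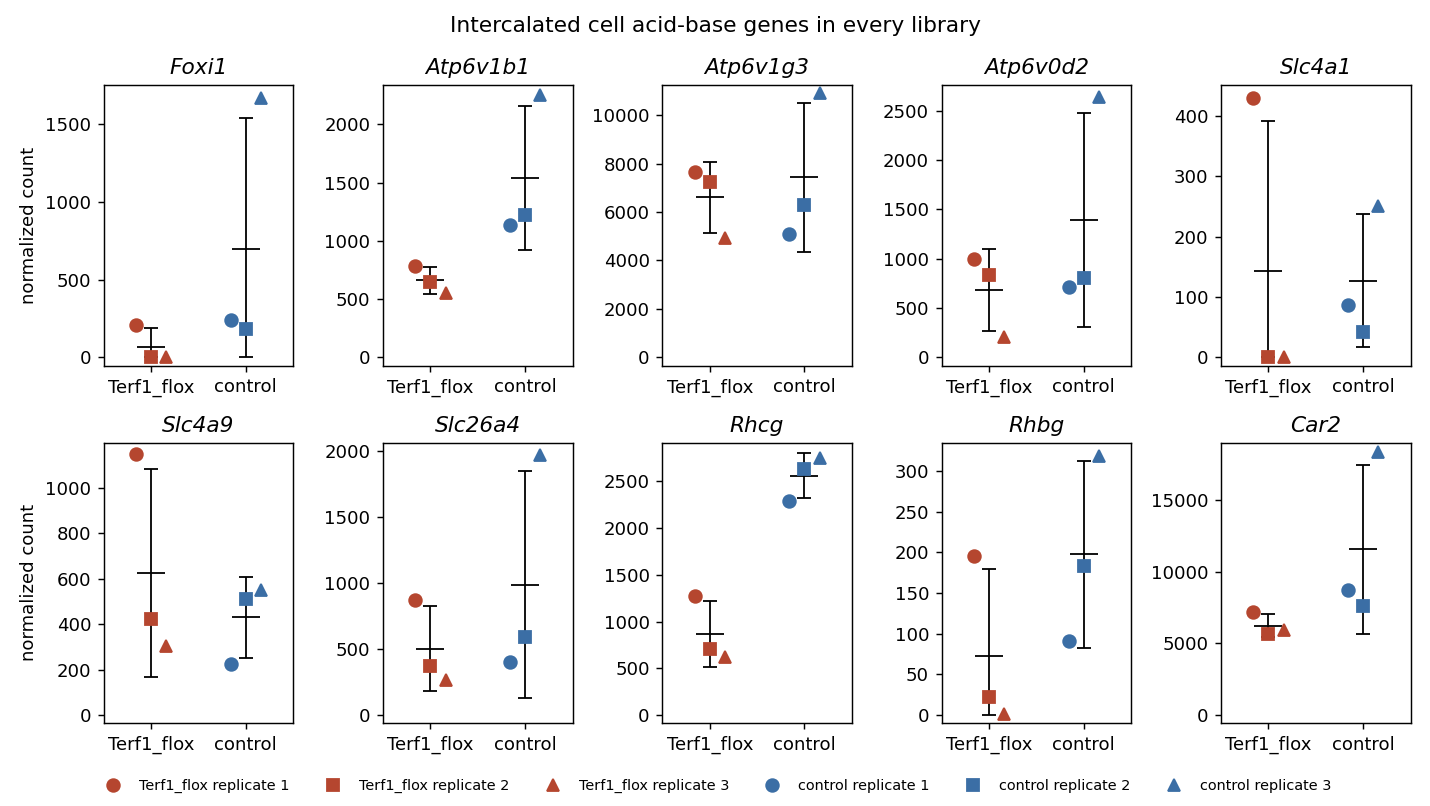
Normalized counts (vertical axes, each starting at 0) of the 10 genes in 3 Terf1_flox and 3 control libraries, with group means and SD (n = 3, lower arm stopped at 0). Rhcg, Atp6v1b1 and Car2 have no overlap between groups, and control replicate 3 is the highest control library in all 10 panels.

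The ammonia channel Rhcg had the smallest p of the 10 genes. It stood at 1272, 710.2 and 623 normalized counts in Terf1_flox, against 2288, 2635 and 2752 in control, so the highest Terf1_flox library lay well below the lowest control library. Its log2 fold change was −1.63 ± 0.33 (SE; 95% interval −2.37 to −0.89), the means being 2.95-fold lower, with a limma adjusted p of 0.108. A stricter filter, keeping means of 50 or more, brought it past the threshold in limma (adjusted p = 0.0381, where 1.23% of genes were called), as did DESeq2 (adjusted p = 0.000693). Leaving out any 1 library gave −1.94 to −1.42. After correction for transcript GC content and length it was −0.82 using the longest transcript of each gene and −1.57 using the median over transcripts, which for Rhcg is 457 bases against a longest of 2090.

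Rhbg, the basolateral ammonia transporter of the same family, was far less abundant. It had 196, 22.6 and 1.01 normalized counts in Terf1_flox, against 90.6, 183 and 319 in control. The last Terf1_flox library held a single read, while the first lay above 2 of the control libraries, so the groups overlapped. The log2 fold change of −3.06 ± 1.53 did not pass (limma adjusted p = 0.408), and with edgeR, which weighs the group means, it was −1.39.

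Foxi1, the transcription factor, had no reads in 2 libraries. It stood at 209.9, 0 and 0 normalized counts in Terf1_flox, against 240.2, 184 and 1668 in control, that is 193, 0 and 0 reads in Terf1_flox, against 273, 193 and 2113 in control. A count of 0 allows up to 3.08 and 3.04 normalized counts in Terf1_flox replicates 2 and 3. Terf1_flox replicate 1 lay between the control libraries, so the groups overlapped. The log2 fold change of −6.14 ± 2.03 (limma adjusted p = 0.238) rests on these zeros and on the pseudocount, being −4.61 with a pseudocount of 5, and edgeR gave −3.25. DESeq2 gave no p for Foxi1. Among the 6979 genes with at least 100 normalized counts in every control library, Foxi1 was the 1 gene (0.0143%) with no read in both of those Terf1_flox libraries, a property looked for after its values were seen. Of all 10 genes, which each had a control mean of at least 100, 2 (Foxi1 and Slc4a1) had 0 reads in at least 1 Terf1_flox library, against 1.74% of the 8850 genes with such a mean. This count was likewise looked for after the values were seen.

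Slc4a1, the band 3 exchanger that returns bicarbonate to the blood in type A cells, showed the same zeros. Its normalized counts were 429.7, 0 and 0 in Terf1_flox, against 87.1, 42.9 and 251 in control. The highest and the lowest values of the 6 libraries were thus both in Terf1_flox, and the direction depended on how libraries were weighed: the limma log2 fold change was −3.71 ± 2.24 (adjusted p = 0.497), while edgeR gave 0.23 and DESeq2 gave 0.20. Foxi1 and Slc4a1 were 2 of the 19 genes (0.128% of those tested) with at least 100 reads in Terf1_flox replicate 1 and none in replicates 2 and 3. That property was drawn from the values of these genes, so the share is a description only. Slc4a1 is also a red cell gene. Where Slc4a1 was highest, in Terf1_flox replicate 1, the haemoglobin genes Hba-a1 (25.0 normalized counts) and Hba-a2 (37.0) were at their lowest of the 6 libraries, and Hbb-bs (91.4) and Hbb-bt (27.2) were within their range. Sptb, the red cell spectrin gene, was at 53.3, 2.05 and 84.0 normalized counts in Terf1_flox, against 2.64, 3.81 and 0 in control, so it was high in that library and in replicate 3, where Slc4a1 had no read. The part of red cells in the Slc4a1 values was not tested.

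The exchangers of type B cells kept reads in every library. Slc26a4 stood at 867, 374 and 263 normalized counts in Terf1_flox, against 399, 592 and 1969.5 in control. Both groups spanned a wide range and overlapped, and the log2 fold change, −0.81 ± 0.66 (adjusted p = 0.628 with limma), was −0.14 without control replicate 3 and −0.40 after the GC content and length correction. Slc4a9, an anion exchanger of the basolateral membrane of type B cells, was the 1 gene of the 10 with a limma fold change above 0, at 1149, 424 and 302 in Terf1_flox, against 226, 511 and 550.2 in control. On the log2 scale the difference was 0.40 ± 0.59 (95% interval −0.94 to 1.75; adjusted p = 0.803 with limma), −0.16 without Terf1_flox replicate 1 and 1.06 after the GC content and length correction.

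To compare both cell types within a library, where scaling between libraries enters only through the pseudocount, log2(Slc4a1 + 1) minus log2(Slc26a4 + 1) was taken. It was −1.01, −8.55 and −8.05 in Terf1_flox, against −2.18, −3.76 and −2.97 in control. Terf1_flox replicate 1 was above all control libraries and the other two Terf1_flox libraries were below them. The difference of means, −2.90, did not exceed the spread (exact two-sided permutation p = 0.4, where 0.1 is the smallest that 3 against 3 libraries allow). It was −1.42 with a pseudocount of 5 and −5.33 without Terf1_flox replicate 1.

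The other type A genes, all of them also on the list of other intercalated cell genes given later, were higher in replicate 1 than in the other Terf1_flox libraries. Kit, a receptor tyrosine kinase of type A cells, stood at 650.5, 2.05 and 4.05 normalized counts in Terf1_flox, against 22.9, 48.6 and 300.0 in control. Aqp6, a type A aquaporin, was at 380.7, 34.9 and 1.01 in Terf1_flox, against 54.5, 220.2 and 417 in control. Slc26a7, a type A anion exchanger, was at 223, 82.1 and 2.02 in Terf1_flox, against 0.880, 204 and 3.16 in control. Across the 6 type A genes, Slc4a1 included, 0 were called by limma and 0 had an unadjusted p below 0.05. Their median log2 fold change was −1.09 (−0.34 without control replicate 3). All 6 were highest in replicate 1 among the Terf1_flox libraries, and their sum was 2849.9, 122 and 87.0 normalized counts in Terf1_flox, against 225, 592 and 1392 in control. Of the 5 type B genes, 0 were called and 0 had such a p, with a median of −0.81 (−0.14 without control replicate 3). Among the Terf1_flox libraries, replicate 1 was also highest for 4 of these 5. The 5 genes summed to 3871, 1010 and 1120 normalized counts in Terf1_flox, against 1524, 1874 and 5525 in control. The type B receptor Oxgr1 was at 1534, 51.3 and 292 in Terf1_flox, against 705, 519 and 1588 in control. The exception among the type B genes was the transcription factor Hmx2, at 1.09, 119 and 81.0 in Terf1_flox, against 122, 94.4 and 1186 in control. Hmx2 was lowest where Kit and Slc4a1 were highest.

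The V-ATPase has subunit forms that are restricted to a few cell types. Atp6v1b1 encodes the B1 subunit of the catalytic V1 sector and stood at 784, 643 and 554 normalized counts in Terf1_flox, against 1141, 1225 and 2254 in control. Every Terf1_flox library lay below every control library. The log2 fold change was −1.16 ± 0.36 (95% interval −1.97 to −0.35), with an adjusted p of 0.213 in limma and 0.0325 in DESeq2. Correcting for GC content and length brought it to −0.46. Atp6v0d2, the d2 subunit of the membrane V0 sector, was at 1001, 836 and 210.5 in Terf1_flox, against 718, 809 and 2639.7 in control. Only Terf1_flox replicate 3 and control replicate 3 fell outside the range of the other four libraries, and the groups differed by −1.04 ± 0.69 on the log2 scale (limma adjusted p = 0.541), or −0.44 without control replicate 3.

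Atp6v1g3, the G3 subunit of the V1 stalk, was abundant in every library. It had 7641, 7253 and 4913 normalized counts in Terf1_flox, against 5079, 6296 and 10916 in control. The groups overlapped, and the log2 fold change was −0.12 ± 0.31 (95% interval −0.82 to 0.58, limma adjusted p = 0.894); it was 0.20 without control replicate 3 and 0.0062 with equal upper quartiles. In Terf1_flox replicates 2 and 3, Atp6v1g3 thus had at least 4913 normalized counts where Foxi1 and Slc4a1 had none.

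The start regions of these genes are shown because FOXI1 is known to act on intercalated cell genes through forkhead motifs, and because Foxi1 was at 0 in libraries that held Atp6v1b1, Atp6v1g3, Rhcg and Slc26a4. RefSeq promoter windows of build GRCm38.p6, from 250 bases before to 50 after the start, were on hand for 5 of the 10 genes, and 4 are printed 5′ to 3′ on the gene's strand. They are Atp6v1b1 at chr6:83742767-83743066 (plus strand), Atp6v1g3 at chr1:138273488-138273787 (plus), Slc26a4 at chr12:31559935-31560234 (minus) and Rhcg at chr7:79617608-79617907 (minus). Capitals mark the forkhead letters TGTTTAC and its shorter part TGTTT, or their reverse complements GTAAACA and AAACA.
Atp6v1b1: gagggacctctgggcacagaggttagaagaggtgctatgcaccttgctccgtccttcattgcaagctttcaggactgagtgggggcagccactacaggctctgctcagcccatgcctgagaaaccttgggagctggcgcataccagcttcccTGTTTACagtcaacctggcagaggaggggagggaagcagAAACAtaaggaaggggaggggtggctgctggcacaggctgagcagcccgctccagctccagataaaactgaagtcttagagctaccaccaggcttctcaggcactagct
Atp6v1g3: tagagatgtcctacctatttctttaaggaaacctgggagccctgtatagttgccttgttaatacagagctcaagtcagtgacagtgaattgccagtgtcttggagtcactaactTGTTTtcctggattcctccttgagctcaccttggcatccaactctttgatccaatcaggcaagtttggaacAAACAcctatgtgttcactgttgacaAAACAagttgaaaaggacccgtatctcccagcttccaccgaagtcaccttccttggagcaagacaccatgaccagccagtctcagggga
Slc26a4: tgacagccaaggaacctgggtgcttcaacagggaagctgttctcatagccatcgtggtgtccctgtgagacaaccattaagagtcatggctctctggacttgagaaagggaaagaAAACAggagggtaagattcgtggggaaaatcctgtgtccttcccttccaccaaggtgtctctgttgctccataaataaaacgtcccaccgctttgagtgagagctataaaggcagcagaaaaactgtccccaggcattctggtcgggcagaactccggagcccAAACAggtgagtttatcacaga
Rhcg: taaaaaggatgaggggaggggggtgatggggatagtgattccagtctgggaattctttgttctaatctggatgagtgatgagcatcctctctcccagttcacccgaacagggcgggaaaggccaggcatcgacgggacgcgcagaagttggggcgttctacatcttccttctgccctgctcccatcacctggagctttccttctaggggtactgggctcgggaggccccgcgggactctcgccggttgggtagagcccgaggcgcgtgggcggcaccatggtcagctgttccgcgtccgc

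The longer motif TGTTTAC was present in the Atp6v1b1 window, starting at position −98 from the start site, and in none of the other 3 windows. On either strand it was found in 3.65% of all 32851 promoter windows of this length. The shorter TGTTT was found in 50.5% of them, with 2 matches in the Atp6v1b1 window (1 of them inside the longer motif), 3 in that of Atp6v1g3, 2 in that of Slc26a4 and 0 in that of Rhcg. The Foxi1 window, not printed, held 1 match of the shorter motif. A match of letters is a description of the window and not a binding site.

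Each restricted pump subunit has a partner form used in most cells, and the share of a pair's reads that came from the restricted form compares them within a library. Atp6v1b1 made up 38.9%, 44.6% and 36.5% of the reads of Atp6v1b1 and Atp6v1b2 in Terf1_flox, against 36.3%, 48.0% and 46.5% in control (Wilson 95% intervals up to 2.59 points to either side). The means were 40.0 ± 4.16% in Terf1_flox and 43.6 ± 6.37% in control (SD, n = 3 each; exact two-sided permutation p = 0.5). The ubiquitous Atp6v1b2 was itself lower without overlap, at 1232, 799 and 963 normalized counts in Terf1_flox, against 2001, 1326 and 2592 in control (log2 fold change −0.95 ± 0.33, limma adjusted p = 0.261). Both B subunit genes were thus lower in every Terf1_flox library than in any control library.

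Atp6v0d2 made up 84.4%, 52.1% and 29.1% of the reads of Atp6v0d2 and Atp6v0d1 in Terf1_flox, against 39.0%, 38.3% and 73.3% in control (intervals up to 3.32 points to either side). The groups overlapped completely (difference 4.97 points, exact permutation p = 0.7), and the difference was −9.63 points without Terf1_flox replicate 1. The ubiquitous Atp6v0d1 did not overlap, at 184.9, 768 and 514 normalized counts in Terf1_flox, against 1121, 1303 and 961 in control (log2 fold change −1.42 ± 0.52, limma adjusted p = 0.273). Atp6v1g3 made up 53.1%, 51.8% and 40.0% of the reads of Atp6v1g3 and Atp6v1g1 in Terf1_flox, against 42.5%, 58.5% and 57.0% in control (intervals up to 0.909 points to either side; exact permutation p = 0.5). Atp6v1g1 itself was at 6753, 6760.1 and 7369 normalized counts in Terf1_flox, against 6869, 4463.5 and 8219.9 in control. For all 3 pairs the differences between libraries of one group were as large as those between the groups.

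**Figure D2:**
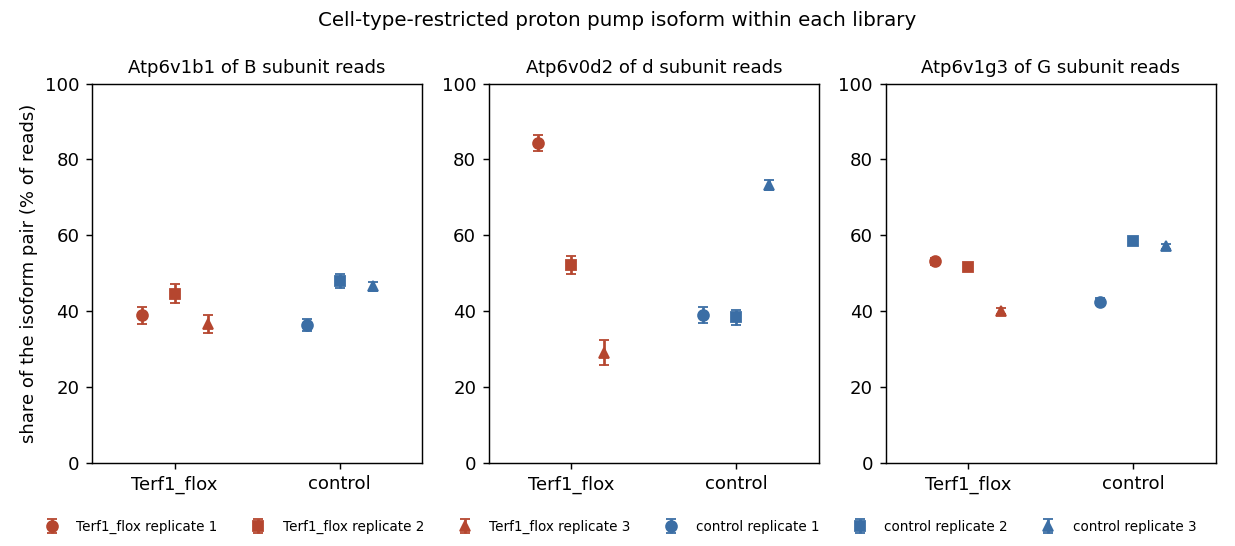
Share of reads (vertical axes, percent, 0 to 100) that came from the restricted form of 3 proton pump subunit pairs in each Terf1_flox and control library, with Wilson 95% intervals. The Atp6v0d2 share runs from 29.1% to 84.4% within Terf1_flox and from 38.3% to 73.3% within control.

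Among all 17 ubiquitous V-ATPase subunit and accessory genes tested, 0 were called by limma, and the median log2 fold change was −0.21. At an unadjusted limma p below 0.05, 6 were lower and 1 higher, against 8.43% of all genes lower and 14.1% in either direction. These shares of all genes also apply to the list counts given below. The accessory protein Atp6ap1 was at 1402, 1078 and 692 normalized counts in Terf1_flox, against 3754, 2398 and 4944 in control (−1.80 ± 0.36, limma adjusted p = 0.110). Atp6v0e, a small V0 subunit, was at 26848, 21576 and 20249 in Terf1_flox, against 16390, 8623 and 12000.2 in control (0.93 ± 0.24, limma adjusted p = 0.161). The proton-conducting ring subunit Atp6v0c had a log2 fold change of −0.58 ± 0.18, and the V1 subunit Atp6v1c1 of −1.19 ± 0.40. Atp6v0c was at −0.14 after the GC content and length correction.

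Car2, the cytosolic carbonic anhydrase, was among the most abundant of the 10 genes. It stood at 7162, 5649.7 and 5905 normalized counts in Terf1_flox, against 8716, 7617 and 18361 in control. The groups did not overlap, yet the highest Terf1_flox library and the lowest control library lay close together. The log2 fold change was −0.78 ± 0.32 (95% interval −1.51 to −0.06), with an adjusted p of 0.318 in limma and 0.0874 in DESeq2. It was −0.39 without control replicate 3 and −0.37 after the GC content and length correction.

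Of 8 other carbonic anhydrase genes tested, 0 were called, 3 were lower at an unadjusted p below 0.05, and the median log2 fold change was −1.61. Car15, a membrane-bound form, was at 352, 336 and 177 normalized counts in Terf1_flox, against 786, 461 and 1485 in control (−1.56 ± 0.52, limma adjusted p = 0.242). Car14, another membrane form, was at 6.53, 5.13 and 66.8 in Terf1_flox, against 151, 87.7 and 113 in control, and Car8, a family member without catalytic activity, at 1.09, 12.3 and 2.02 in Terf1_flox, against 310.5, 68.6 and 83.7 in control. Car12 and Car4, the most abundant of these 8, had log2 fold changes of −0.09 ± 0.21 and −0.20 ± 0.35. Of 8 other bicarbonate and anion transporters of the Slc4 and Slc26 families, 0 were called and 0 had an unadjusted p below 0.05, with a median of 0.47.

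Per kilobase of the longest annotated transcript, Car2 and Atp6v1g3 were the most abundant of the 10 genes. Car2 had 3489 ± 453 normalized counts per kilobase in Terf1_flox and 6468 ± 3306 in control (SD, n = 3 each), and Atp6v1g3 had 3499 ± 782 in Terf1_flox and 3938 ± 1632 in control. Their means ± SD overlapped in both groups, but Car2 was the higher in every control library, at 4875, 4260 and 10269 against 2692, 3337 and 5785. In Terf1_flox, Atp6v1g3 was the higher in replicates 1 and 2 and Car2 in replicate 3. Rhcg followed at 415 ± 168 in Terf1_flox and 1224 ± 115 in control, a step down from Atp6v1g3 larger than the sum of both SDs in each group. Atp6v1b1 had 330.4 ± 58.2 in Terf1_flox and 770.3 ± 310.0 in control, and Atp6v0d2 had 269 ± 164 in Terf1_flox and 547 ± 427 in control. Slc26a4 had 163 ± 105 in Terf1_flox and 321 ± 279 in control, and Foxi1 had 29.7 ± 51.4 in Terf1_flox and 296 ± 357 in control. The least abundant in control were Slc4a9, at 198 ± 145 in Terf1_flox and 136 ± 56.1 in control, Rhbg, at 37.8 ± 55.1 in Terf1_flox and 102 ± 59.3 in control, and Slc4a1, at 31.5 ± 54.6 in Terf1_flox and 27.9 ± 24.1 in control. From Atp6v1b1 down, neighbours in the order of control levels differed by less than the sum of their SDs. That sum leaves out that the genes were measured in the same libraries. The order held in every control library from Atp6v1b1 to Atp6v0d2 to Slc26a4, and from Slc4a9 to Rhbg to Slc4a1. It changed between control libraries for Slc26a4 and Foxi1, and for Foxi1 and Slc4a9. For scale, Slc12a1 of the thick ascending limb had 10686 ± 783 per kilobase in Terf1_flox and 7718 ± 857 in control.

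Within each group the same library was highest for all 10 genes, while the order of the others differed between genes. Control replicate 3 was the highest control library for 10 of 10, against 34.8% of all genes tested, and Terf1_flox replicate 1 was the highest Terf1_flox library for 10 of 10, against 34.5%. Both held together for 10 of 10, against 11.5% of all genes. The median deviation of the 10 genes from their own means was 0.44, −0.62 and −1.18 in Terf1_flox and 0.16, 0.24 and 1.46 in control, on the log2 scale. Over all genes tested, the median deviation of a library ran from 0.02 to 0.06 in Terf1_flox and from 0.06 to 0.11 in control. Control replicate 3 exceeded the mean of the other two control libraries 7.87-fold for Foxi1, 3.98-fold for Slc26a4 and 3.86-fold for Slc4a1, but 1.12-fold for Rhcg.

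**Figure D3:**
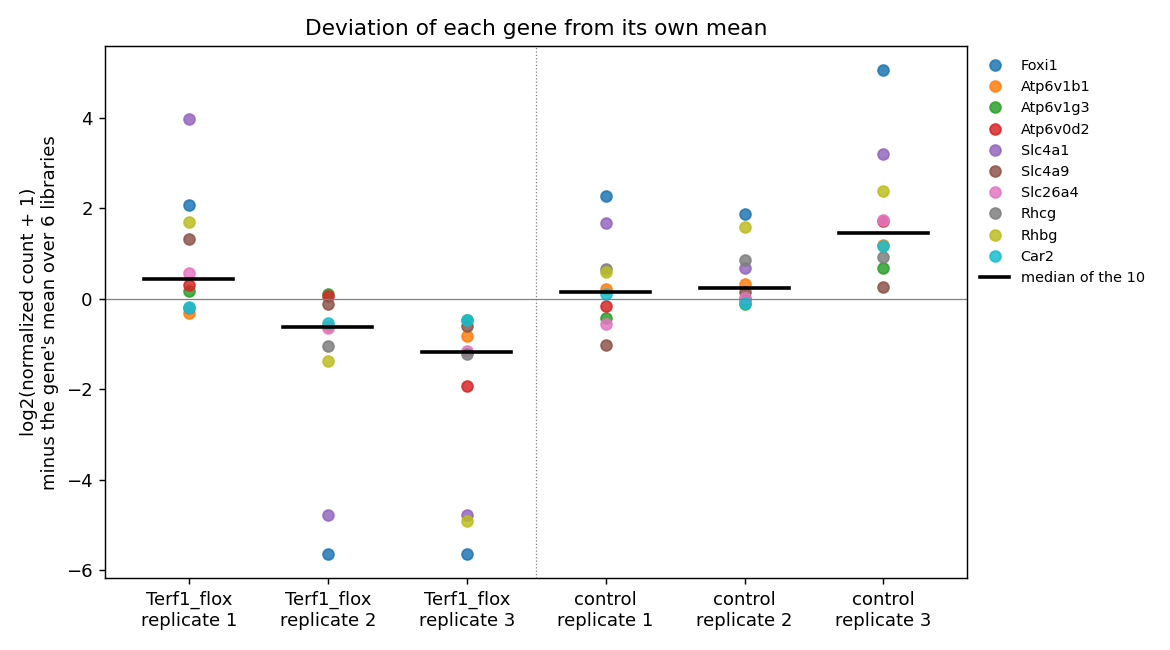
Deviation of log2(normalized count + 1) from each gene's mean over 6 libraries (vertical axis) in the Terf1_flox and control libraries, with the median of the 10 genes as a black bar. The medians run from −1.18 to 0.44 in Terf1_flox and from 0.16 to 1.46 in control, so replicate 1 of Terf1_flox lies above 2 control libraries.

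Without Terf1_flox replicate 1, 7 of 10 genes were lower with no overlap, against 16.1% of all genes tested. They were Foxi1, Atp6v1b1, Slc4a1, Slc26a4, Rhcg, Rhbg and Car2. The same 7 genes did not overlap without both that library and control replicate 3, against 21.4% of all genes lower. In either case limma called 0 of 10 and 0 of all genes. Since the library left out was the highest Terf1_flox library for all 10 genes, leaving it out can only widen the gap for them, and these counts are a description. Leaving out any other single library gave 3 or 4 genes, against 14.7% to 16.7% of all genes lower. The fourth was Foxi1 without control replicate 2. The median log2 fold change of the 10 genes was −1.38 without Terf1_flox replicate 1, −0.65 without control replicate 3 and −0.92 without both.

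**Figure D4:**
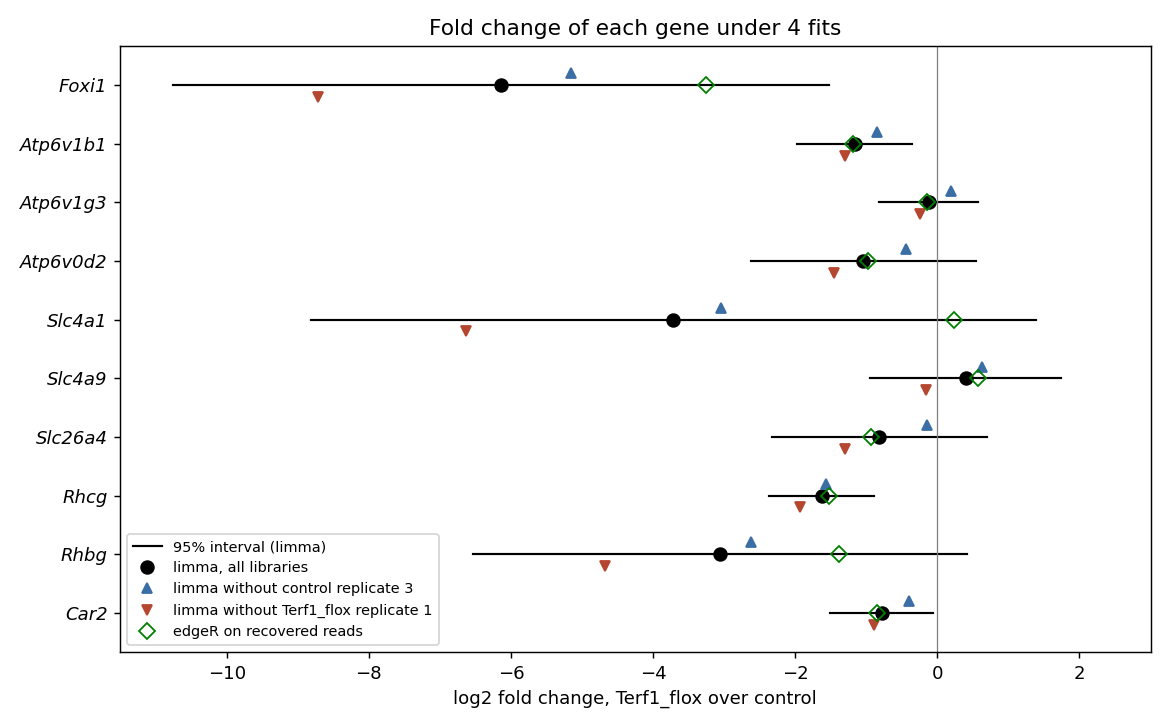
Log2 fold change of Terf1_flox over control (horizontal axis) for the 10 genes, from limma on all libraries with its 95% interval, from limma without control replicate 3, from limma without Terf1_flox replicate 1, and from edgeR. Foxi1, Atp6v1b1, Atp6v0d2, Slc26a4, Rhcg, Rhbg and Car2 are below 0 in all 4 fits, while Slc4a1 moves between −6.63 and 0.23.

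Other marker genes varied between libraries too, and their part in these results was not tested. For the counts below, 8.43% of all genes were lower at an unadjusted limma p below 0.05, and 14.1% passed in either direction. Of 18 other intercalated cell genes tested, 0 were called by limma and 4 were lower and 1 higher at an unadjusted p below 0.05, with a median of −0.64 and 9 of 18 highest in both control replicate 3 and Terf1_flox replicate 1 of their groups. Among them, Atp6v0a4, the a4 pump subunit of intercalated cells, was at 1626, 1332 and 807 normalized counts in Terf1_flox, against 2349, 3013 and 3686 in control (−1.30 ± 0.33, limma adjusted p = 0.152). Bsnd (−1.72 ± 0.48), which encodes barttin and is also used by other distal segments, was lower without overlap. Ncoa7, whose product binds the V-ATPase, was higher without overlap (1.19 ± 0.27). These 3 did not pass in limma (adjusted p from 0.135 to 0.191) but did in DESeq2 (adjusted p from 0.00335 to 0.0257), and once GC content and length were corrected for, Bsnd was at −0.96 and Ncoa7 at 0.75.

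Of 14 principal cell genes, the other cell type of the collecting duct, 0 were called and 3 were lower and 1 higher at an unadjusted p below 0.05, with a median of −0.95 and summed levels of 10297 to 13264 normalized counts in Terf1_flox and 17530 to 25631 in control. Most of this was Kcnj1, a potassium channel also on the thick ascending limb list (log2 fold change −0.90 ± 0.26); without it the sums were 2996, 2455 and 4293 in Terf1_flox, against 3287, 5935 and 3431 in control, and overlapped. Connecting and distal convoluted tubule genes (12 tested, median −0.01) summed to 184033 to 279143 in Terf1_flox and 158096 to 302512 in control, and control replicate 3 was the lowest library of all. Proximal tubule genes (11 tested, median 0.50) summed to 7019 to 17856 in Terf1_flox and 4321 to 6993 in control, with control replicate 3 again lowest and Terf1_flox replicate 3 highest. Thick ascending limb genes (11 tested, median 0.04) summed to 198080 to 211184 in Terf1_flox and 237644 to 287766 in control. Limma called 0 genes of these 3 segment lists, in which 5 genes were lower and 2 higher at an unadjusted p below 0.05. In the thick ascending limb Umod, the main urinary protein (−0.90 ± 0.15), and the prostaglandin receptor Ptger3 (−1.33 ± 0.33) were lower without overlap, and Slc12a1, the salt transporter that defines this segment, was higher without overlap (0.47 ± 0.13). Without Umod the sums of that list were 146987, 145105 and 133880 in Terf1_flox, against 112098, 142976 and 149670 in control, and overlapped.

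Macrophages express Atp6v0d2, and red cells Slc4a1 and Car2. Of 15 macrophage markers 8 were in the table and 6 tested (median −0.04), with sums of 265 to 571 in Terf1_flox and 437 to 559 in control. Most of the sum was Cd74 and Fcer1g, except in Terf1_flox replicate 3, where Cd74 was at 0 and Fcer1g at 67.8 normalized counts. The markers did not vary together: Cd68 was highest in control replicate 3, the library with the most Atp6v0d2, at 48.9 normalized counts against at most 4.11 elsewhere, as was Laptm5, at 33.9 against at most 7.61. Csf1r was highest in Terf1_flox replicate 3, the library with the least Atp6v0d2, at 108. Of 15 erythroid markers 7 were in the table and 6 tested (median −0.64), with sums of 2292 to 3401 in Terf1_flox and 2291 to 4133 in control, most of it Tfrc, which many dividing cells use. Without Tfrc the sums were 234, 153 and 640 in Terf1_flox, against 749, 446 and 210.0 in control. Control replicate 3, highest for Car2, was thus low for this sum, while Klf1, a red cell regulator under the filter, was highest there, at 19.7 normalized counts against at most 2.02 in the other five libraries. Of 10 endothelial and of 10 fibroblast and pericyte markers, 2 and 1 were tested, and the medians were −2.72 and 1.77, and summed levels stayed at or below 60.7 and 39.0 in Terf1_flox and 201 and 18.2 in control.

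The genes outside these lists whose pattern over the 6 libraries came closest to the median pattern of the 10 were Rlim, Dusp3, Stk16, Tenm2, Ola1, Ahctf1, Hsph1 and Upp1, out of 8169 candidates with a mean of at least 100. Likeness was the root mean square difference of the log2 deviations, which ran from 0.206 for Rlim to 0.307 for Upp1. Of the 10 genes themselves, 0 came closer than Upp1: Slc26a4 was at 0.331, Atp6v1b1 at 0.362 and Foxi1 at 3.36. Rlim, a ubiquitin ligase, had 553, 247 and 133 normalized counts in Terf1_flox, against 330, 437 and 819 in control, with the same 2 libraries on top of their groups.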

How the data were processed

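The authors deposited 1 table of normalized counts (a signal: read numbers over a scaling factor) for 16095 genes. DESeq2 and GRCm39 are named per the submitters' processing notes. Aligner, counter, strand setting and annotation: not given in the sources used here. Reads of overlapping antisense genes could therefore not be told apart. Dividing by each library's step gave whole reads for 100.0% of values, to within 0.01. Genes with a mean of at least 10 (14822) were tested with limma 3.58.1 (R 4.3.3; empirical Bayes with a trend, no covariates) on log2(normalized count + 1), with Benjamini-Hochberg adjustment over all of them; the added 1 shrinks fold changes of low genes, while a library at or near 0 weighs more than in a ratio of means, which made those of Foxi1, Slc4a1 and Rhbg larger than with edgeR. Fold changes are Terf1_flox over control. edgeR 4.0.16 quasi-likelihood and DESeq2 1.42.0 Wald tests ran on the recovered reads and called 0 and 772 genes. Transcript length and GC content came from the longest protein-coding transcript of GENCODE release 21 for mouse (GRCm38), for 98.9% of tested genes.

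The 10 genes and all lists were chosen with earlier results of these data known. The genes always named were the 10, Terf1, Cdh16, Epcam and 3 partner subunits; from each other list up to 4 genes with the smallest p could be named; others were picked with their values in view. Some genes of these lists are not reported here. Set tests were not run. The fits were tested on simulated reads. There limma recovered 0% of 2-fold, 8% of 4-fold, 36% of 8-fold and 38% of 16-fold changes, with 0 false calls. The results of edgeR and DESeq2 on the simulated reads are not reported here. Other alternatives were pseudocounts, filters, scalings, array weights, a replicate block and leaving out libraries. Figures were drawn with matplotlib 3.10.9.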

Additional observations from a re-analysis of the deposited data

How the results depend on the processing

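Over all genes, limma called 0, but 132 when genes with means under 50 were dropped, 45 when libraries were rescaled to equal totals and 8 under quantile normalization; DESeq2 called 772. Of the 10 genes, limma called 1 (Rhcg) with the stricter filter and DESeq2 called 2 (Rhcg and Atp6v1b1). The median log2 fold change of the 10 genes stayed below 0 in all settings tried, from −1.38 to −0.65 in leave-one-out fits, which called 0 of all genes and 0 of the 10. Against −0.08, the median of all genes was −0.24 with equal totals, 0.04 with equal upper quartiles and 0.06 under quantile normalization, and that of the 10 was −1.28, −0.98 and −1.04. After the GC content and length correction the median of the 10 was −0.64, against 0.07 over all genes. By the median transcript it was −0.85, against 0.08. Single-library omissions gave −0.36 to 0.20 for Atp6v1g3 and −0.16 to 0.80 for Slc4a9. Atp6v1g3 was at 0.0062 with equal upper quartiles, 0.08 without Terf1_flox replicate 3, 0.20 without control replicate 3 and 0.0780 without control replicate 3 and Terf1_flox replicate 1. Slc4a9 was at −0.16 without Terf1_flox replicate 1 and −0.0067 without control replicate 1. The cause of these changes of sign was not tested. Slc4a1 was at 0.23 with edgeR and 0.20 with DESeq2, its group means being 143 normalized counts in Terf1_flox and 127 in control. In leave-one-out fits the Slc4a1 to Slc26a4 contrast ran from −5.33 to −1.56, the B1 share difference from −7.27 to −1.42 points, the d2 share difference from −9.63 to 18.0 points (−0.616 without control replicate 1, −0.981 without control replicate 2) and the G3 share difference from −9.50 to −0.27 points. Same-numbered libraries did not deviate together over genes (correlations of −0.049, 0.00013 and −0.0069). The labels do not say whether the numbers pair libraries, and these correlations cannot settle it. With the replicate block limma called 0 genes and 0 of the 10, and exact sign-flip permutation over the pairs gave p = 0.5 for the contrast and the B1 share and 0.75 for the d2 and G3 shares. Leaving out the 2 libraries together, list sums without their leading gene, the overlap without other libraries and the correction by median transcript were chosen after seeing the data. With 3 libraries per group and the spread seen here, a missed threshold does not show that a gene was unaltered.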

Other observations

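Other genes of renal acid handling, not particular to the intercalated cell, were also measured. Among 11 such genes tested, 0 were called by limma, 2 were lower and 2 higher at an unadjusted p below 0.05, and the median log2 fold change was 0.12. The basolateral potassium channel Kcnj10 was at 1148, 1029 and 1137.5 normalized counts in Terf1_flox, against 1442, 2044 and 1756 in control (log2 fold change −0.65 ± 0.26, limma adjusted p = 0.319). For Kcnj10 the groups did not overlap, which held for 10.8% of all genes tested with lower values in Terf1_flox.

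Tfcp2l1, a transcription factor of the collecting duct that acts with Foxi1 in intercalated cells of mice, kept reads in all libraries. It was at 2814, 2896 and 1517 normalized counts in Terf1_flox, against 3246, 4240 and 5819 in control (−0.90 ± 0.33, limma adjusted p = 0.273). Dmrt2, a type A transcription factor, had 223, 0 and 1.01 in Terf1_flox, against 0.880, 0 and 250.2 in control, so it was detected at more than a read in 1 library of each group, the same 2 libraries that were highest for all 10 genes.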
